A study of Homo sapiens with 17 samples.

Results

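RNA that came down with ORF2p was compared with RNA that came down with ORF1p, repeat copy by repeat copy, in RNA immunoprecipitation sequencing (RIP-seq, in which a protein is captured from a lysate and the RNA bound to it is sequenced). The table of estimated counts listed 3594049 repeat loci of 1080 subfamilies. Compared here were the 347397 loci whose counts summed to 100 or more over all 17 libraries, and the 1074 subfamilies that passed a filter on low counts. A locus with reads in only 1 of the 2 RIPs could pass that minimum, and 39802 loci had no rounded count in any ORF1p library while 1894 had none in any ORF2p library. All 4 groups were made from N2102Ep, a long-established cell line from a human embryonal carcinoma, according to its label: 4 ORF1p RIP, 4 ORF2p RIP, 3 mock IP (with mIgG in their descriptions) and 6 total RNA libraries. No allele, drug or time point is labelled for any of them. Source labels differ: embryonal for the ORF1p RIP, and clone 2/A6 of the line for the other 3 groups. The 2 RIPs also carry separate runs of sample index numbers, so the protein captured, the source material and the batch cannot be told apart.

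LINE-1 (L1) is the retrotransposon that still copies itself in the human genome. Its transcript encodes ORF1p, a trimeric protein that coats RNA, and ORF2p, an endonuclease and reverse transcriptase that is made in far smaller amounts. Both proteins tend to bind the very RNA that encoded them, and Alu elements borrow ORF2p to move. Embryonal carcinoma cells express young L1 elements and the endogenous retrovirus HERVH with its LTR7 promoters, as pluripotent cells do.

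Total repeat reads came to 7693841 to 9125527 per ORF1p library and 9795032 to 17056092 per ORF2p library, of which the tested loci held 76.0% to 84.1% and 85.2% to 85.9%. At least 1 read fell on 67.4% to 80.7% of these loci with ORF1p and on 86.4% to 95.0% with ORF2p. ORF1p replicate 3 stood apart: it covered the fewest loci, its 7953 loci with the most reads held 50% of its reads against 16365 to 17159 loci in the other 3, and its L1HS level was high (16065, 15472, 53009 and 17613 CPM in replicates 1 to 4, where CPM is the usual depth-scaled count, here over all repeat reads and TMM-scaled library sizes). Values without it are given beside the counts by repeat group and gene group, and beside other results where they change a call or a direction. The ORF1p group as a whole lay far from all others. Over the 347397 loci, Spearman's rho of the mean levels was 0.11 between ORF1p and ORF2p, 0.0978 between ORF1p and the mock IP and 0.0644 between ORF1p and total RNA. It was 0.516 between ORF2p and the mock IP and 0.700 between the mock IP and total RNA, as a description across loci that share libraries. Pairs of libraries correlated at 0.747 to 0.870 within ORF1p and 0.624 to 0.706 within ORF2p. They correlated at 0.718 to 0.737 within the mock IP and 0.453 to 0.892 within total RNA. AluY, for example, stood at 10978 and 10619 CPM in total RNA replicates 1 and 2 and at 3411 to 4089 CPM in replicates 3 to 6. Total RNA replicates 1 and 2 also carry another run of sample index numbers than replicates 3 to 6. Means of total RNA thus pool libraries that differ, and the reason was not tested. Whether replicates were separate cultures is not labelled, so the p-values reflect the spread of these particular libraries, part or all of which may be technical. A level is a share of a library's repeat reads, so more of one RNA, less of the others, and a larger bound fraction of a transcript cannot be told apart.

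Copies of a single subfamily could go either way, and 3 copies of HERVS71-int, the internal part of an ERV1 retrovirus, show this. Each holds the start of a long noncoding RNA gene in RefSeq (GRCh38.p14), as do an L1MCb and an L1PB2 copy that were near 0 with ORF1p and lower with ORF2p than in both controls. Their windows are shown, 5′ to 3′ on the gene's strand, with 100 bases before the gene start in lower case and the first 50 transcribed bases in capitals. They were chosen after their values were seen.
HERVS71-int in LOC101928217, chr4:4031604-4031753 (+): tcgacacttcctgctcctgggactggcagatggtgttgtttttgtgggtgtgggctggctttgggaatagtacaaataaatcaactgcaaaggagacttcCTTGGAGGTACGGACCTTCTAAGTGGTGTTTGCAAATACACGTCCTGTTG
HERVS71-int in LOC107987171, chr12:8320223-8320372 (-): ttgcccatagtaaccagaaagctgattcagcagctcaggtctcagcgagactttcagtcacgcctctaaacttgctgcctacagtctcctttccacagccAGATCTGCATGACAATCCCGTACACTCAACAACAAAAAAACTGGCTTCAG
HERVS71-int in LINC02754, chr11:67884328-67884477 (+): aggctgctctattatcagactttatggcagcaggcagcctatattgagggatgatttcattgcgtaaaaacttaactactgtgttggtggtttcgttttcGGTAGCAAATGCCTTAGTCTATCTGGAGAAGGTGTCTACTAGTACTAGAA
L1MCb in LOC107986840, chr7:119706472-119706621 (+): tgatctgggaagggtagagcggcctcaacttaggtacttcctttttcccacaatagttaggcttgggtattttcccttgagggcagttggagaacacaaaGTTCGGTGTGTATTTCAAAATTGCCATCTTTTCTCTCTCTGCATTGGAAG
L1PB2 in LOC124901391, chr6:122568530-122568679 (-): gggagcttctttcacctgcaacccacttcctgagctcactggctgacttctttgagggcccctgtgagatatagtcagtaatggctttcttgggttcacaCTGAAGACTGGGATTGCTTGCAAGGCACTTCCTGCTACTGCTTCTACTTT

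The HERVS71-int copy at chr4:4031113-4033931 was higher with ORF2p. Its levels were 10.1, 9.06, 17.1 and 12.8 CPM with ORF1p and 52.8, 46.7, 45.7 and 49.2 CPM with ORF2p. The log2 change was 1.99 ± 0.30 (SE, edgeR adjusted p = 4.02e-06), and the groups did not overlap. Its means were 151 CPM in the mock IP and 93.2 CPM in total RNA, above both RIPs. The copy at chr12:8318356-8321168 went the other way, from 61.6 ± 10.4 to 19.1 ± 0.749 CPM (SD, n = 4 each). So did the copy at chr11:67882929-67885775, from 12.9 ± 1.26 to 2.75 ± 1.36 CPM (SD, n = 4 each), with log2 changes of -1.69 and -2.23 (edgeR adjusted p = 2.65e-05 and 1.70e-05). Their means were 45.8 and 5.99 CPM in the mock IP and 22.8 and 3.599 CPM in total RNA. The L1MCb copy at chr7:119705201-119707009 stood at 0.137 ± 0.163 CPM with ORF1p and 32.3 ± 3.11 CPM with ORF2p (SD, n = 4 each), next to 39.3 CPM in the mock IP and 73.1 CPM in total RNA. The L1PB2 copy at chr6:122568244-122572317 stood at 0.117 ± 0.161 and 12.7 ± 3.12 CPM, next to 22.7 and 29.5 CPM in these controls. Such overlaps were rare on either side: of loci of 150 bases or more, 50 of 87178 higher ones (0.0574%), 26 of 65530 lower ones (0.0397%) and 131 of 295887 in all (0.0443%) held a whole window.

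Many repeat copies differed between the 2 RIPs. With ORF2p, 102695 of 347397 loci (29.6%) were higher than with ORF1p and 77124 (22.2%) were lower, where a call means an adjusted p under 0.05 in edgeR's quasi-likelihood test and at least a 2-fold change. The 4 libraries of one RIP all lay above the 4 of the other at 24.0% of loci in favour of ORF2p and 18.4% in favour of ORF1p. Without ORF1p replicate 3 the counts were 100720 higher and 73551 lower, and 95269 and 68437 of the calls made with all libraries were made again. The median log2 change over all loci was 0.12, and it moved to -0.097 with plain library totals (94998 higher, 88393 lower) and to 0.62 with scaling factors taken from the loci themselves (123476 higher, 53694 lower). The direction of a small change therefore depends on the scaling: with factors from the loci, the medians of AluJ, of HERVK-int with LTR5 and of loci in protein-coding genes moved from -0.31, -0.49 and -0.41 to 0.18, 0.017 and 0.087, next to 0.62 for all loci. Group shares were therefore set against those of all loci under the same scaling. DESeq2, run on the 8 RIP libraries alone, called 106093 loci higher and 50495 lower.

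**Figure D1:**
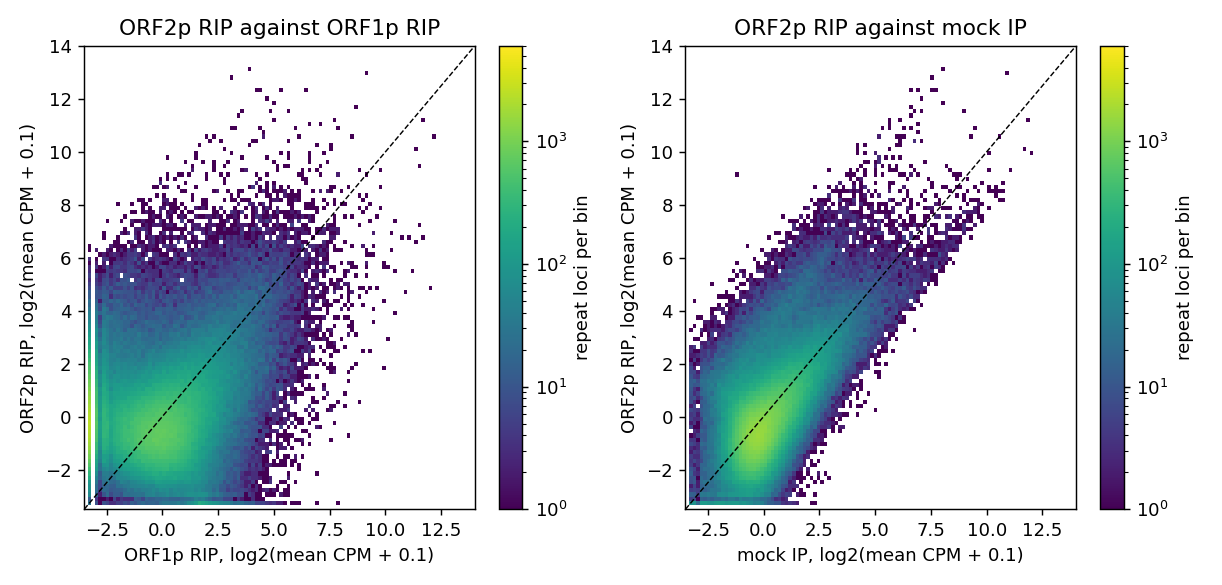
Mean level of each tested locus with ORF2p (y axis) against ORF1p and against the mock IP (x axes), as log2(mean CPM + 0.1), with the shade giving the number of loci in each cell of the grid. Loci spread widely around the diagonal against ORF1p (Spearman's rho 0.11) and lie closer to it against the mock IP (rho 0.52).

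Abundant repeat RNA of the cells was often near 0 with ORF1p. Of the 5365 loci at 10 CPM or more in both the mock IP and total RNA, 1690 (31.5%) were below 0.5 CPM with ORF1p and 0 were with ORF2p. In the other direction, 11363 loci reached 10 CPM with ORF1p, and 563 of them (4.95%) were below 0.5 CPM in both controls. Of the 12562 loci at 10 CPM or more with ORF2p, 127 (1.01%) were below 0.5 CPM in both controls and 3047 (24.3%) were below it with ORF1p. Set against the mock IP, 17.6% of all loci were above it and 29.1% below it with ORF1p, and 8.35% were above and 8.41% below with ORF2p (both comparisons use the same 3 mock libraries).

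L1HS, the human-specific and youngest L1 subfamily, was above the mock IP in both RIPs. Of its 878 loci, 761 were above the mock IP with ORF1p and 763 with ORF2p, with median log2 changes of 3.29 and 3.23. Among the 309 copies of 5900 bases or more, which can hold a full-length element, 299 and 303 were above it. With replicate 3 left out, ORF1p was above the mock IP at 687 of the 878. Between the RIPs, 99 L1HS loci were higher with ORF2p (11.3%) and 115 lower (13.1%), fewer each way than among all loci, and the median log2 change was -0.13. Without ORF1p replicate 3, 189 were higher and 66 lower, with a median of 0.45, so the balance of L1HS loci between the RIPs turned with that library. The summed level of the full-length copies was 12233, 11724, 40506 and 13712 CPM with ORF1p. It was 12162, 11329, 9999.8 and 10416 CPM with ORF2p, 1055 ± 69.4 CPM (SD, n = 3) in the mock IP and 972 ± 442 CPM (SD, n = 6) in total RNA. ORF1p replicate 3 was high, and the other 3 ORF1p libraries overlapped the ORF2p libraries.

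Of the 6 L1HS copies with the most reads over the 8 RIP libraries, 5 were lower with ORF2p and 1 was not called. They were picked by reads of both RIPs, so copies high in either one were more likely to be named. The full-length copy at chr22:28663284-28669315, which lies in TTC28 on the strand opposite to the gene, stood at 1642, 1574, 5400.0 and 1944 CPM with ORF1p. With ORF2p it stood at 115, 107, 103 and 83.9 CPM, against means of 7.500 CPM in the mock IP and 5.78 CPM in total RNA. Every ORF1p library lay above every ORF2p library, and the log2 change was -4.69 ± 0.51 (SE) (edgeR adjusted p = 2.81e-08), or -4.07 without ORF1p replicate 3. Of the other 5 L1HS loci with the most reads, 4 full-length copies were also lower with ORF2p: at chr7:25041861-25047891 (log2 change -2.94 ± 0.39 (SE)), at chr12:74874869-74880901 in the noncoding gene LOC105369842 (-2.95 ± 0.41 (SE)), at chr17:9615986-9622015 in CFAP52 (-3.29 ± 0.40 (SE)) and at chr1:239623499-239629523 (-4.35 ± 0.40 (SE)). The edgeR adjusted p of these 4 ran from 1.86e-09 to 1.23e-06. The copy at chr3:26728189-26730137, a truncated one, was at 154, 155, 1316 and 140.0 CPM with ORF1p and 325, 633, 946 and 514 CPM with ORF2p. Replicate 3 alone made these groups overlap: the log2 change was 0.45 ± 0.82 (SE) with all libraries (edgeR adjusted p = 0.667) and 2.01 without it (edgeR adjusted p = 0.0476), which is then a call.

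From L1PA2 on, more L1 loci were higher with ORF2p than lower, while the order by age seen with all libraries rested on ORF1p replicate 3. The number in an L1PA name rises with the age of the subfamily. Loci higher with ORF2p made up 27.2% of 2070 L1PA2 copies, 30.4% of 3963 L1PA3 copies, 36.5% of 2987 L1PA4 copies and 43.6% of L1PA7 copies, against 29.6% of all loci. Loci lower with ORF2p made up 5.17%, 4.39%, 6.39% and 16.9% of the same copies, against 22.2% of all. Without that library the higher shares were 45.8%, 48.8%, 47.4% and 43.96%, with no rise from L1PA2 to L1PA7, against 28.99% of all loci. The lower shares were then 3.09%, 3.18%, 5.29% and 15.8%. With all libraries, from L1PA8 to L1PA17 the higher share lay between 40.1% and 45.1%, with no further order by name, and the lower share between 16.3% and 23.03%. Leaving out ORF1p replicate 3, they lay between 39.04% and 44.4% and between 13.9% and 24.3%. Among L1PA2 copies of 5900 bases or more, 339 of 1030 were higher and 47 lower. Over all L1 loci, the higher share was 29.5% of those under 500 bases, 31.98% of those of 500 to under 2000 bases, 39.1% of those of 2000 to under 5900 bases and 35.3% of those of 5900 or more. The lower share was 21.6% in the shortest and 6.76% in the longest of these classes. With that library left out, the higher shares of the 4 classes were 28.6%, 31.6%, 43.9% and 52.3%, and 611 of the 1030 long L1PA2 copies were higher.

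Against the mock IP, the share of L1 loci above it was smaller in older subfamilies in both RIPs down to L1PA5. ORF1p was above the mock IP at 72.1% of L1PA2, 51.7% of L1PA3, 26.9% of L1PA4 and 16.98% of L1PA7 loci. Without replicate 3 these shares were 59.4%, 35.7%, 16.8% and 13.9%, against 16.1% of all loci. ORF2p was above it at 82.4%, 66.8%, 48.5% and 15.98%. At L1PA5 the shares were 18.6% and 31.8%, next to backgrounds of 17.6% with ORF1p and 8.35% with ORF2p. From L1PA7 to L1PA17 the share was 12.5% to 18.4% with ORF1p and 9.36% to 15.98% with ORF2p, and loci below the mock IP came to 33.9% of L1PA7 with ORF1p and 5.19% with ORF2p. For L1PA16 the shares below it were 39.3% and 5.99%. Of all loci, 29.1% were below it with ORF1p and 8.41% with ORF2p, so most of this contrast was shared by repeat loci in general. Whether the RIPs differ in this decline was not tested, and both use the same 3 mock libraries.

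**Figure D2:**
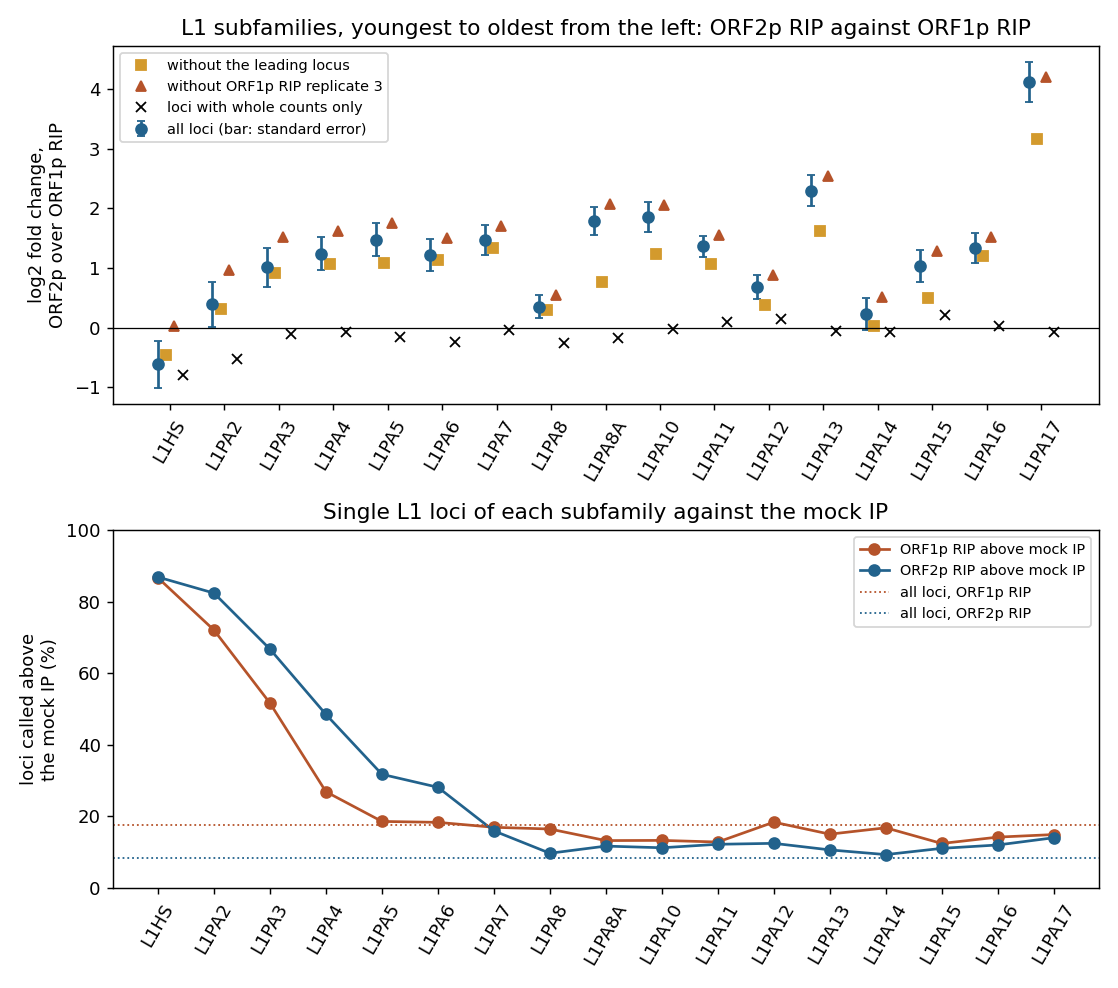
Top, log2 change of ORF2p over ORF1p for each L1 subfamily from L1HS to L1PA17 (main value ± SE, without the locus with the most reads, without ORF1p replicate 3, and from loci with whole counts only). Bottom, percent of each subfamily's loci above the mock IP with each protein, with dotted lines for all loci: both series start at about 87% in L1HS, and the ORF2p series lies above the ORF1p series from L1PA2 to L1PA6.

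In several older subfamilies 1 copy held a large part of the ORF2p reads. L1PA17 as a whole stood at 1052 ± 127 CPM with ORF1p and 18292 ± 1488 CPM with ORF2p (SD, n = 4 each), and 49.4% of the ORF2p level came from 1 of its 3614 copies. That copy, at chr19:21967686-21968855 in the zinc finger gene ZNF208, stood at 10.8, 12.4, 23.3 and 15.6 CPM with ORF1p and 8440.4, 9716, 9681 and 8314 CPM with ORF2p. Its means were 262 CPM in the mock IP and 626 CPM in total RNA, so ORF1p lay below both controls and ORF2p above both. The log2 change was 9.19 ± 0.72 (SE) (edgeR adjusted p = 1.11e-10), and without this copy L1PA17 still differed by 3.16. An L1ME3C copy at chr2:77096220-77098124 within LRRTM4, which encodes a synaptic adhesion protein, went from 29.2, 34.4, 73.7 and 29.1 CPM to 4893, 5783, 5399 and 5182 CPM, a log2 change of 7.0 ± 0.67 (SE). An L1PA13 copy at chr6:131919320-131921049 in CCN2-AS1 went from 18.7 ± 9.95 to 5331 ± 138 CPM (SD, n = 4 each). In each of these, all ORF2p libraries were above all ORF1p libraries.

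Several longer copies were also higher with ORF2p. The L1PA5 element at chr4:166743490-166749649, in SPOCK3 and on the opposite strand, went from 90.98 ± 50.4 to 5376 ± 337 CPM (SD, n = 4 each). The L1PA3 element at chr19:20807725-20813827, outside gene spans, went from 52.5 ± 23.6 to 2811 ± 194 CPM (SD, n = 4 each). The L1PA7 element at chr5:85582242-85588699 went from 8.24 ± 5.07 to 1837 ± 154 CPM (SD, n = 4 each), and the L1PA10 element at chrX:126268743-126273664 from 11.1 ± 6.42 to 2777 ± 232 CPM (SD, n = 4 each). Their log2 changes were 5.89, 5.74, 7.81 and 7.97, with edgeR adjusted p from 2.07e-10 to 1.24e-09. The L1PA6 copy with the most ORF2p reads, at chr2:49227587-49231532, went from 229, 319, 635 and 259 CPM to 1368, 1467, 1249.9 and 1779 CPM. It was above the mock IP (80.8 CPM) with both proteins. For the L1PA5, L1PA3, L1PA7 and L1PA10 elements, the mean with ORF1p was below that in the mock IP (115, 132, 97.8 and 100.5 CPM). At the L1PA5 element, ORF1p replicate 3 alone lay above the mock IP, at 166 CPM.

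Most L1HS and L1PA loci did not have whole-number counts in all 8 RIP libraries. Young copies are nearly identical, and only 0.0757% of L1PA3, 0.114% of L1HS and 1.71% of L1PA7 loci had whole-number counts in all 8 RIP libraries, against 32.5% of all loci. The sources used here do not say how reads matching several copies were divided, so the level of a single young copy is uncertain. When subfamilies were summed only from loci with whole counts, L1PA17 changed by -0.067 in place of 4.12, L1PA13 by -0.066 in place of 2.3, L1PA7 by -0.043 in place of 1.47 and L1PA4 by -0.079 in place of 1.24 on the log2 scale. None of these 4 was then called. Whole counts were found at 14.3% of L1PA13 and 28.3% of L1PA17 loci. The copies with the most ORF2p reads in these 4 subfamilies were not among the loci with whole counts. Sums from whole counts thus cover other loci, and whether shared reads made the changes was not tested.

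Among Alu elements, the short repeats that use ORF2p, loci higher with ORF2p made up a smaller share than among all loci, which was not tested as a difference. Of 57453 Alu loci, 21.6% were higher with ORF2p and 23.1% lower, against 29.6% and 22.2% of all loci, and the median log2 change was -0.18. The young AluYa and AluYb copies had 64 of 240 higher and 50 lower. AluS copies had 22.4% of 31339 higher and 21.8% lower, and the oldest, AluJ, 19.7% of 18699 higher and 24.9% lower. The Alu monomers (FLAM, FRAM and FAM, ancestors of the Alu dimer) had 16.8% of 2657 higher and 29.8% lower, with a median of -0.55. When ORF1p replicate 3 was left out, 19.9% of Alu loci were higher and 22.6% lower, next to 28.99% and 21.2% of all loci. The counts for AluYa and AluYb were then 69 and 44, and the shares 20.5% and 21.4% for AluS (more lower than higher), 18.1% and 24.7% for AluJ and 14.8% and 28.6% for the monomers. As subfamilies, 1 of 51 Alu subfamilies was called and it was lower, next to 12.4% of all 1074 subfamilies higher and 6.52% lower. AluYa5 stood at 702, 587, 1181 and 682 CPM with ORF1p and 769, 740.0, 438 and 830.1 CPM with ORF2p, so the groups overlapped, and AluYb8 overlapped as well, from 1064 to 1921 CPM with ORF1p and from 840.2 to 1153 CPM with ORF2p. The log2 change of AluYa5 was -0.18 ± 0.25 (SE) (edgeR adjusted p = 0.548), and it turned to 0.080 without ORF1p replicate 3. The mean of AluYa5 was 249 CPM in the mock IP, and 51 of 116 AluYa5 loci (43.97%) were above the mock IP with ORF1p and 35 (30.2%) with ORF2p, next to 17.6% and 8.35% of all loci. The AluY copy at chr12:65463993-65464279 in MSRB3, a methionine sulfoxide reductase gene, stood at 28.5, 22.4, 44.3 and 29.5 CPM with ORF1p and had no rounded count in any ORF2p library. An AluJb copy at chr7:125233024-125233305 was the reverse, with no rounded count with ORF1p and 58.9, 56.3, 52.7 and 54.4 CPM with ORF2p.

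HERVH-int, the internal part of HERVH, and LTR7, its promoter, were mostly below the mock IP with ORF1p. Of 4032 HERVH-int loci, 3126 were below the mock IP with ORF1p and 2128 with ORF2p, and of 943 LTR7 loci 722 and 315 were, next to 29.1% of all loci below it with ORF1p and 8.41% with ORF2p. Without ORF1p replicate 3, 3239 and 718 were below it with ORF1p. The mock IP itself was above total RNA for both repeats. As a subfamily, HERVH-int had means of 181986 CPM in the mock IP and 83868 CPM in total RNA. Its means were 42658 CPM with ORF1p and 69937 CPM with ORF2p. For LTR7 the means were 11663 CPM in the mock IP, 4268 CPM in total RNA, 2399 CPM with ORF1p and 6719 CPM with ORF2p. Between the RIPs, 57.9% of the 5233 HERVH-int and LTR7 loci were higher with ORF2p and 9.84% lower, with a median log2 change of 1.89 against 0.12 over all loci. Without replicate 3, 60.6% were higher and 8.58% lower. The LTR7 copy with the most ORF2p reads, at chr2:77093667-77094030 in LRRTM4, stood at 6.72, 6.21, 6.92 and 8.21 CPM with ORF1p and 979, 629, 571 and 762 CPM with ORF2p, and its log2 change was 6.71 ± 0.38 (SE) (edgeR adjusted p = 1.38e-12). The HERVH-int copy next to it, at chr2:77088677-77091793, went from 24 ± 6.504 to 1538 ± 209.9 CPM (SD, n = 4 each), against 605 CPM in the mock IP.

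Single HERVH-int copies differed in both directions, while the subfamily as a whole changed by 0.71 ± 0.20 (SE) on the log2 scale and was short of the 2-fold threshold. Its change without ORF1p replicate 3 was 1.005 (edgeR adjusted p = 2.88e-05), which is a call. One of the 6 copies with the most reads, at chr15:35239063-35242176 in DPH6 (an enzyme of diphthamide synthesis) and on the opposite strand, stood at 3941, 3263, 6503 and 3347 CPM with ORF1p. With ORF2p it stood at 33.2, 23.8, 25.02 and 29.8 CPM, with 111 CPM in the mock IP and 43.6 CPM in total RNA. The log2 change was -7.25 ± 0.41 (SE) (edgeR adjusted p = 1.38e-12). A copy at chr1:68386440-68389684 fell from 2022, 1669.5, 2305 and 1389 CPM to 35, 22.2, 26.3 and 22.7 CPM. A chromosome 8 copy at chr8:114282149-114285388 rose from 22.7, 17.9, 24.6 and 20.5 CPM to 2389, 1581, 1651 and 2364 CPM. The copy at chr3:54636819-54639750 had log2 change -1.19 ± 0.31 (SE) and -0.99 without ORF1p replicate 3, which is short of the 2-fold threshold. The copy in SEMA3E at chr7:83460121-83463207 stood at 888, 747, 1219 and 711 CPM with ORF1p and 805, 584, 521 and 588 CPM with ORF2p (log2 change -0.51 ± 0.31 (SE), edgeR adjusted p = 0.165), and its small difference changed sign, to 0.015, with scaling from the loci.

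Among HERVK-int and its LTR5 ends, from the youngest human endogenous retrovirus family, more loci were lower with ORF2p than higher. Of 520 HERVK-int and LTR5 loci, 118 were higher with ORF2p (22.7%) and 163 lower (31.3%), next to 29.6% and 22.2% of all loci, with a median of -0.49. Leaving out ORF1p replicate 3, 106 were higher and 167 lower. LTR5_Hs stood at 3633, 3346, 2023 and 3090.3 CPM with ORF1p and 1029, 734, 768 and 939 CPM with ORF2p, next to 917 CPM in the mock IP. Its log2 change was -1.8 ± 0.25 (SE) (edgeR adjusted p = 1.39e-05), with no overlap between the groups, and -1.63 without its leading copy. Summed only from loci with whole counts, the change was -0.22 (edgeR adjusted p = 0.582) and no longer a call, while 0% of the tested LTR5_Hs loci and 1.54% of those of HERVK-int had whole counts. The leading copy, at chr11:101695063-101696030, stood at 425, 364, 187 and 383 CPM with ORF1p and 0.532, 0, 1.05 and 0.411 CPM with ORF2p. Of 242 LTR5_Hs loci, 81 (33.5%) were above the mock IP with ORF1p and 7 (2.89%) with ORF2p, next to 17.6% and 8.35% of all loci. HERVK-int was at 22853, 23172, 29237 and 18755 CPM and 16462, 16665, 17333 and 16768 CPM and was not called, but 1 copy held 47.5% of its ORF2p reads, and without the leading copy the subfamily changed by -1.38 (edgeR adjusted p = 0.00185). From loci with whole counts the sign was the other way, at 1.23 (edgeR adjusted p = 0.0209).

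Among the remaining groups, ERV1, ERVL, ERVL-MaLR and Tip100 had larger shares of loci higher with ORF2p than all loci (29.6%), and ERVK, L2, Charlie and Tigger smaller ones. The ERV1 family had 43.8% of 18448 loci higher with ORF2p and 17.2% lower. The ERVL and ERVL-MaLR families had 37.3% and 36.5% higher, and ERVK, which includes HERVK-int, 26.4% of 1883 higher and 24.6% lower. As subfamilies, 53 of 297 ERV1 were higher (17.8%) and 16 lower (5.39%), next to 12.4% and 6.52% of all 1074 subfamilies. ERVL had 8 of 120 higher (6.67%) and 9 lower (7.5%), and ERVL-MaLR had 4 of 83 each way (4.82%). Neither ERVL nor ERVL-MaLR thus had a larger higher share than all subfamilies at this level. L2, an ancient LINE, had 25.4% higher and 26.4% lower, and MIR, a SINE mobilised by L2, 29.3% and 22.5%. Of the DNA transposons, Tip100 had 45.1% of 1722 loci higher, whereas Charlie and Tigger had 24.4% and 23.4%. L1 copies of the mammalian L1MB, L1MC and L1MD groups had 26.1% and 28.4% higher, and the younger L1MA group 37.9%. Higher shares without ORF1p replicate 3 were 43.7% for ERV1, 35.8% for ERVL, 34.9% for ERVL-MaLR, 41.9% for Tip100, 24.4% for L2, 28.1% for MIR, 23.3% for Charlie, 22.4% for Tigger and 37.2% for L1MA, next to 28.99% of all loci. For ERVK they were 24.7% higher and 25.7% lower, so its balance turned with that library. No group went one way only: of 780 subfamilies with 20 or more tested loci, 777 had loci called in both directions.

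**Figure D3:**
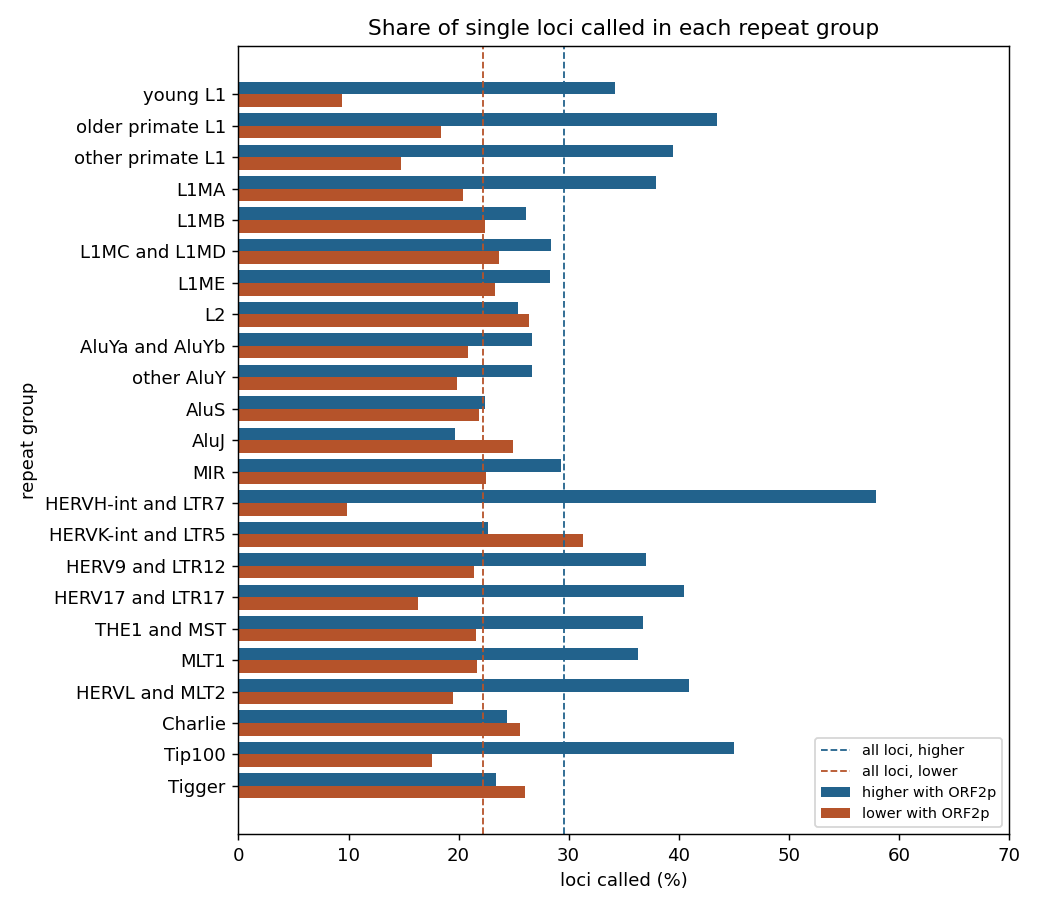
Percent of the loci of each repeat group that were higher (upper bar of each pair) or lower (lower bar) with ORF2p than with ORF1p, with dashed lines at the 29.6% and 22.2% of all loci. HERVH-int with LTR7 has the longest bar for higher loci (57.9%), and HERVK-int with LTR5 the longest for lower loci (31.3%).

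The direction of the difference went with where a copy lies. Loci outside all RefSeq gene spans were higher with ORF2p in 59.3% of 69307 cases and lower in 10.2%, and loci inside a single lncRNA gene in 52.4% and 13.9% of 34487. Loci inside a single protein-coding gene leaned the other way, with 17.01% higher and 27.3% lower of 214556. Of all loci, 29.6% were higher and 22.2% lower. The median log2 changes were 2.84, 2.04 and -0.41, or 2.2, 1.73 and -0.41 with loci at 0 in one RIP set to a floor of 3 counts over its 4 libraries. Without ORF1p replicate 3 the higher shares were 59.96%, 52.04% and 16.02%. With loci of whole counts only, they were 61.97%, 54.7% and 15.7%. Gene spans hold introns and exons alike, and the counting strand is unknown, so exonic and intronic copies were not separated.

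The same order held within families. Outside gene spans, 55.5% of L1, 56.8% of Alu, 60.2% of ERV1 and 68.4% of MIR loci were higher with ORF2p. In protein-coding genes these were 18.6%, 14.6%, 22.95% and 18.3%. With ORF1p replicate 3 left out, the shares were 58.8%, 55.5%, 60.9% and 66.9% outside gene spans and 18.3%, 12.8%, 22.3% and 17.2% in protein-coding genes. Of the reads on tested loci, those outside gene spans made up 17.03% ± 2.91 with ORF1p and 32.4% ± 0.346 with ORF2p (SD, n = 4 each). ORF1p replicate 3, at 21.4%, lay above the other ORF1p libraries (15.5% to 15.7%) and below every ORF2p library. The controls were at 33.2% ± 0.184 in the mock IP (SD, n = 3) and 30.6% ± 1.402 in total RNA (SD, n = 6). Reads in protein-coding genes made up 63.3% ± 3.23 and 43.4% ± 0.267 (SD, n = 4 each), with 44.2% in the mock IP. Of loci outside gene spans, 54.7% were below the mock IP with ORF1p and 6.39% with ORF2p, next to 29.1% and 8.41% of all loci.

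**Figure D4:**
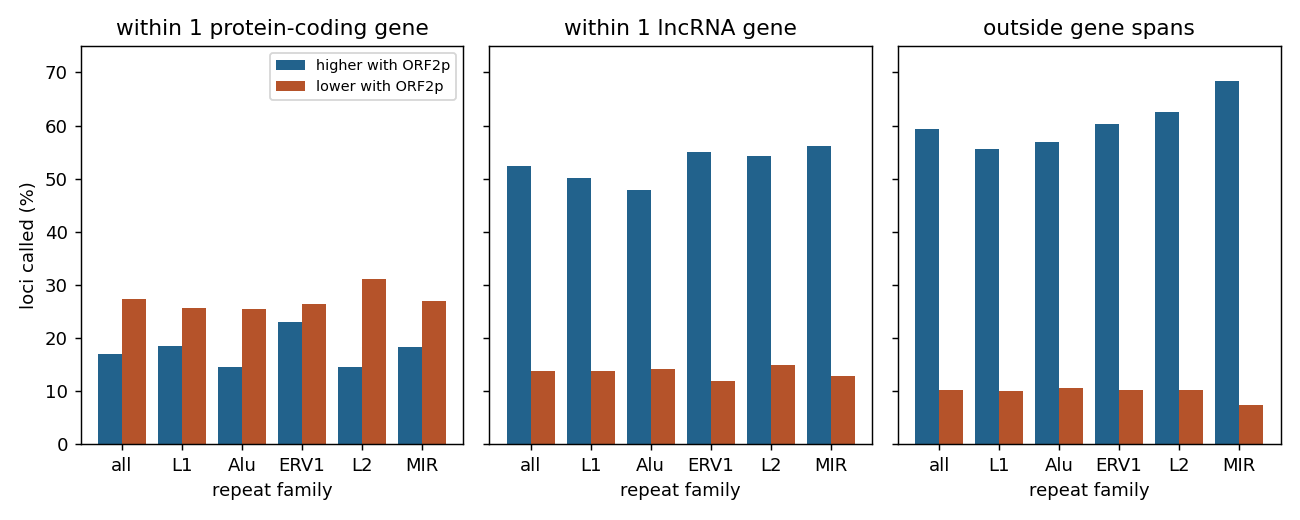
Percent of loci called in each direction between the RIPs (higher or lower with ORF2p), by where the locus lies (inside 1 protein-coding gene, inside 1 lncRNA gene, outside gene spans), for all loci and for 5 families. In every family shown the higher share is smallest in protein-coding genes and over 50% outside gene spans.

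Neighbouring called loci mostly shared a direction. Of the 95732 loci higher with ORF2p that had another called locus within 10000 bases, the nearest one was called the same way for 98.1%, as it was for 97.5% of 71045 lower loci. Of all called loci 57.1% were higher and 42.9% lower. Loci of a gene can lie on a single transcript, so they were not counted as independent. Of the 5046 gene spans with 5 or more called loci, 1301 held higher loci only, 2169 lower loci only and 1576 both. Among loci inside a single gene of known strand, those within 2000 bases of its 3′ end made up 2.66% of 38886 higher, 4.58% of 51872 lower and 3.03% of all 198402. Copies of 5900 bases or more made up 2.08% of higher, 0.576% of lower and 1.73% of all loci.

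Summed over the repeat copies inside each gene, 3055 of 13248 gene spans were higher with ORF2p (23.1%) and 4354 lower (32.9%), and the groups did not overlap in 27% of spans in favour of ORF2p and 40.7% in favour of ORF1p. With plain library totals 2697 were higher and 5003 lower. Spans of lncRNA genes had 1060 higher and 611 lower of 2504, spans of protein-coding genes 1853 higher and 3640 lower of 10313, and genes with LINC symbols 221 higher and 100 lower of 456. The counts without ORF1p replicate 3 were 3187 higher and 4305 lower in all, 1150 and 586 for lncRNA genes, 1885 and 3618 for protein-coding genes and 243 and 99 for LINC symbols. ZNF208 and ZNF99, KRAB zinc finger genes of chromosome 19, were among the 10 spans with the largest rise. ZNF208 went from 30.9 ± 8.79 to 17477 ± 1164 CPM (SD, n = 4 each) (log2 change 9.15 ± 0.48 (SE), edgeR adjusted p = 1.12e-11), and 51.6% of its ORF2p reads lay on the L1PA17 copy described above. ZNF99 went from 0.838 ± 0.321 to 366 ± 53.8 CPM (SD, n = 4 each). Of 425 spans with ZNF symbols, 107 were higher (25.2%) and 113 lower (26.6%), next to 23.1% and 32.9% of all spans. Without ORF1p replicate 3 the counts for ZNF symbols were 111 and 113. LINC02726 went from 0.961 ± 0.381 to 458 ± 47.95 CPM (SD, n = 4 each), with 96.2% of its ORF2p reads on an L1PA7 copy. In LINC00314, the locus with the most ORF2p reads held only 20.1% of them, and the span went from 0.320, 0, 0.161 and 0.114 CPM to 87.6, 63.7, 65.7 and 78.4 CPM, next to 87.96 CPM in the mock IP.

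The 10 spans with the largest fall were low in the controls. ZEB2, a zinc finger homeobox factor of the epithelial to mesenchymal transition, stood at 67.9, 64.3, 78.3 and 71.8 CPM with ORF1p and had no rounded count in any ORF2p library, with 3.15 CPM in the mock IP and 0.298 CPM in total RNA. Set against the floor of 3 counts over the 4 ORF2p libraries, it was at least 980-fold lower. The span holds 75 repeat loci, with or without reads, and the locus with the most ORF1p reads held 6.25% of them. SOST, which encodes the WNT antagonist sclerostin, was at 19.1, 21.98, 20.1 and 24.1 CPM and 0, at least 296-fold lower, almost all of it on 1 MIR3 copy. CSAG3, a cancer/testis gene on chromosome X, was at 13.8, 12.9, 12.4 and 6.39 CPM and 0, at least 158-fold lower, though its near-identical paralogs make the assignment of reads uncertain. Among the 10 spans with the largest fall, mean levels in total RNA ranged from 0 to 0.474 CPM. These floors and folds cover counting error only.

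Genes that mark the pluripotent state of N2102Ep were among those called in either direction. Repeat copies in 11 of 14 such genes had reads, and 5 of these were higher and 3 lower with ORF2p, next to 23.1% and 32.9% of all gene spans. The calls of these 11 were the same without ORF1p replicate 3. LINC-ROR, a noncoding RNA of pluripotent cells that is built largely from HERVH, went from 10.3, 11.2, 8.71 and 15.1 CPM to 1477, 1043, 1024 and 1222 CPM. L1TD1, which derives from an L1 ORF1, went from 37.6, 34.5, 104 and 51 CPM to 4455, 4663, 4346 and 4247 CPM, and DNMT3B, a DNA methyltransferase, from 25.1 ± 2.32 to 509 ± 79.2 CPM (SD, n = 4 each). NANOG went from 2.81 ± 1.34 to 27.9 ± 6.33 CPM (SD, n = 4 each) and ZFP42 from 0.133 ± 0.155 to 14.7 ± 3.04 CPM (SD, n = 4 each). The log2 changes of these 5 were 6.71, 6.29, 4.34, 3.29 and 6.5, with edgeR adjusted p from 4.27e-13 to 1.00e-05. POU5F1, the factor OCT4, went the other way, from 266, 251, 147 and 161 CPM to 13.5, 10.1, 9.22 and 15.9 CPM, and LIN28A and SALL4 fell by 2.02 and 1.36 on the log2 scale. The summed level of the list was 815 to 967 CPM with ORF1p, 6518 to 7614 with ORF2p and 2876 to 3086 in the mock IP.

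Markers of other cell types summed to under 30 CPM in every library. Of 14 such genes, 11 had repeat reads and 2 could be tested. VIM, a mesenchymal filament gene, was at 27.1, 26.7, 24.3 and 19.2 CPM with ORF1p and 0.426, 0.246, 0 and 0.669 CPM with ORF2p, and COL1A2 at 0, 0.373, 0.161 and 0 CPM and 5.75, 3.69, 2.62 and 3.43 CPM. The list summed to 22.8 to 29.6 CPM with ORF1p, 3.96 to 7.18 with ORF2p and 6.199 to 8.28 in the mock IP. AFP, TTR, CGA, GATA3, PAX6, NES and PTPRC each had means under 0.5 CPM in both RIPs. KRT7 had means of 0 CPM with ORF1p and 0.567 CPM with ORF2p, and COL1A1 of 1.35 and 0.0969 CPM. The sum was higher with ORF1p than in any other group, but VIM alone, at a mean of 24.3 CPM, made up most of it. The higher sum is thus a result for VIM and not for the list as a whole. Its part in the differences between the RIPs was not tested.

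The loci with the largest fitted difference had reads with 1 protein and no rounded count with the other, written 0 here. An L1MA8 copy at chr12:79723684-79724394 in the antisense gene PPP1R12A-AS2 stood at 189.7, 191, 383 and 166 CPM with ORF1p and 0 with ORF2p, at least 3229-fold lower. The MIR copy beside it, at chr12:79724396-79724602, was at 56.04, 56.4, 98.1 and 54.2 CPM and 0, at least 919-fold lower. An L1PA15-16 copy at chr22:34628943-34629292 and the HAL1 copy that adjoins it were at least 1683-fold and 838-fold lower. A MIR copy in SEMA3C, a secreted semaphorin gene, was at 56.2 ± 16.1 CPM (SD, n = 4) and 0, at least 781-fold lower. A THE1B copy at chr2:185151563-185151925 stood at 42.6, 33.4, 56.7 and 36.7 CPM with ORF1p and at 0 in all 13 other libraries. In the mock IP and total RNA, the 12 loci with the largest fall had means of at most 0.824 and 0.302 CPM.

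The 12 loci with the largest rise were, by contrast, present in both controls. They had no rounded count in any ORF1p library, and their means in the mock IP ran from 1.13 to 45.3 CPM. An L1PA6 copy at chr21:13725902-13730182 stood at 94.7, 89.98, 79.6 and 71.7 CPM with ORF2p, at least 907-fold higher than with ORF1p. An L1PREC2 copy at chr7:64079357-64082593 in ZNF727 stood at 71.2, 84.1, 82.8 and 77.7 CPM, at least 853-fold higher. An LTR9D copy at chr16:24478296-24478907 stood at 62.8, 31.5, 37.5 and 49.03 CPM, next to 45.3 CPM in the mock IP. The edgeR adjusted p of these 24 loci ran from 2.20e-12 to 4.60e-09.

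**Figure D5:**
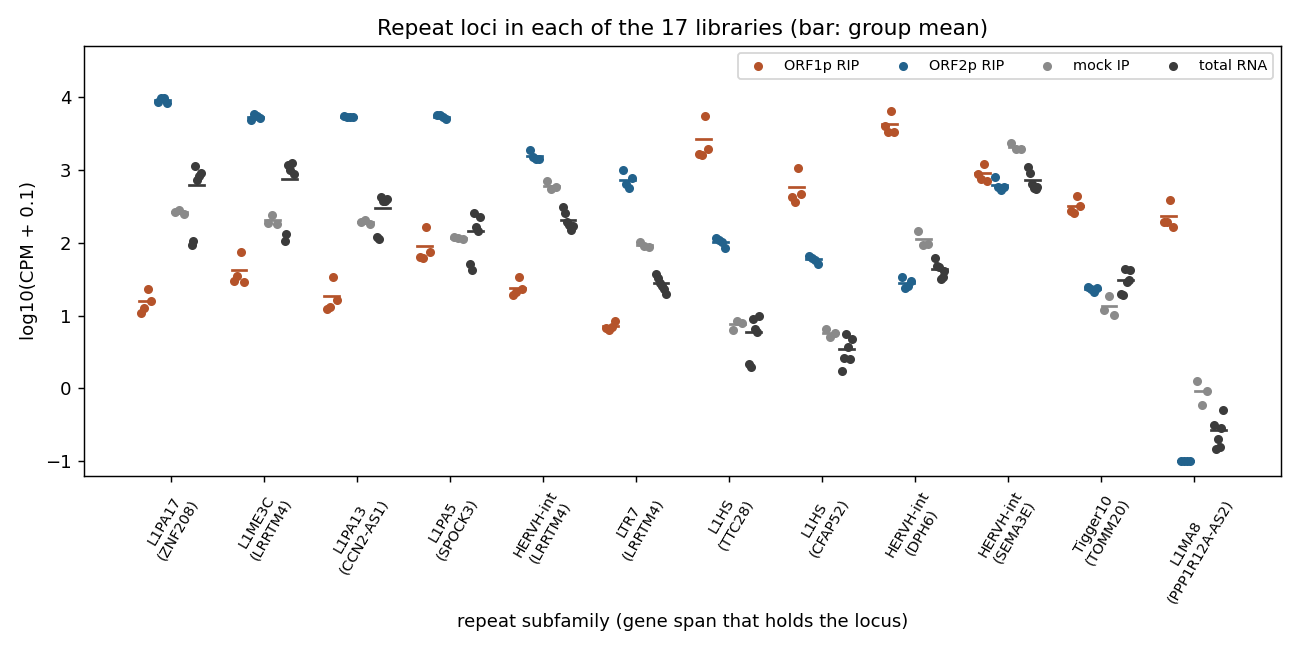
Level of 12 named loci in each of the 17 libraries, as log10(CPM + 0.1), with bars at the group means. The DPH6 HERVH-int and TTC28 L1HS copies are highest with ORF1p, and the ZNF208 L1PA17 copy is higher with ORF2p than in any other group.

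At the level of subfamilies, 133 of 1074 were higher with ORF2p and 70 lower, and without ORF1p replicate 3 the counts were 140 and 64. The groups did not overlap in 29.3% of subfamilies in favour of ORF2p and 30.1% in favour of ORF1p. With plain library totals 95 were higher and 115 lower, so the balance between the directions depended on the scaling. In 42 of the 133 higher and 21 of the 70 lower subfamilies, a single copy held over 50% of the reads. With the leading copy of every subfamily left out, 56 of the 133 and 26 of the 70 were still called, while 1 and 3 could not be tested. LTR22A went from a log2 change of 2.58 to -1.32, MLT1E3 from 2.47 to -0.041 and LTR3 from -2.09 to 0.025. The MLT1E3 copy, a chromosome 8 locus in the noncoding gene LOC105375710, stood at 3.52, 4.35, 4.83 and 4.105 CPM with ORF1p and 1194, 1553, 1611 and 1257 CPM with ORF2p. In MER34B-int a copy in YWHAZ, a 14-3-3 protein gene, held 91.6% of the ORF1p reads and went from 1657, 1674, 1855 and 1474 CPM to 82.9, 133, 142 and 90.5 CPM. Tigger10 kept a log2 change of -1.6 without its leading copy, which lies in TOMM20 (a mitochondrial import receptor) and went from 275, 254, 443 and 322 CPM to 24.9, 22.99, 20.9 and 24.1 CPM. HERV35I-int fell from 399, 413, 569.7 and 421 CPM to 96.1, 93.8, 86.8 and 95.2 CPM, and its change was -1.61 without its leading copy. MER34B-int, Tigger10 and HERV35I-int were also summed only from loci with whole counts, which left out their leading copies. Their changes were then -0.26, -0.86 and -0.37 in place of -3.16, -2.03 and -2.28, and none of these 3 was called.

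By class, LINE elements took a larger and SINE and DNA elements a smaller share of repeat reads with ORF2p. LINE made up 44.8% ± 4.77 with ORF1p and 55.7% ± 1.99 with ORF2p, SINE 26.9% ± 3.49 and 18.4% ± 1.502, DNA 10.2% ± 0.834 and 7.45% ± 0.285, and LTR 17.9% ± 0.619 and 18.4% ± 0.733 (SD, n = 4 each). In an exact two-sided permutation test the first 3 reached the smallest p that 4 against 4 libraries allow, 0.0286 (0.0476 adjusted over 35 shares), and LTR had p = 0.4. Leaving out any 1 library brings the smallest possible exact p to 0.0571, so none of these then passes. The list of older primate L1 made up 2.39% ± 0.334 with ORF1p and 6.803% ± 0.241 with ORF2p. Young L1 made up 8.04%, 7.98%, 17.01% and 8.89% with ORF1p and 15.6%, 16.2%, 15.3% and 14.8% with ORF2p (exact permutation p = 0.143). ORF1p replicate 3 lay above all 4 ORF2p libraries, and the other 3 ORF1p libraries below all 4. The 20 loci with the most reads held 2.13% ± 0.197 with ORF1p and 6.15% ± 0.161 with ORF2p, and without them the LINE difference was 8.28 points in place of 10.8 and no longer passed (exact permutation test, adjusted p = 0.121), while the LTR difference of 1.798 points then passed (exact permutation test, adjusted p = 0.0486).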

How the data were processed

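RNA of N2102Ep cells, from RIP of ORF1p or ORF2p, from a mock IP or from the total, was sequenced after TRIzol elution, DNase treatment, rRNA depletion and library preparation with a Trio RNA-seq kit, per the labels' protocols. STAR and the hg38 build are named in the submitters' processing notes. The counting program, its use of strand and its handling of reads that match several copies are not given in the sources used here. The authors deposited estimated counts per repeat locus, of which only part are whole numbers, in 60 columns. The 17 that match a labelled sample were used and 43 were not.

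Estimated counts were rounded. Subfamilies and gene spans (loci inside exactly 1 RefSeq GRCh38.p14 gene) were summed, and library sizes and TMM factors came from the subfamily sums. edgeR 4.0.16 (R 4.3.3) fitted all 17 libraries by group with the quasi-likelihood test. Each level had Benjamini-Hochberg adjustment over all features tested, and SE was taken from the log2 change and its F statistic (change over root F). Loci needed a summed count of 100, and subfamilies and gene spans passed filterByExpr at 10 and 50 counts. The script was checked on simulated counts. Shares were compared by exact permutation tests (scipy 1.17.1), adjusted over 35 shares. Alternatives included DESeq2 1.42.0, other scalings, filters, whole-number counts only (tolerance 1e-06) and leaving out each RIP library.

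Items to name were drawn from the 10 subfamilies, 12 loci and 10 gene spans with the largest called change each way, leading loci, and preset repeats. Not all of them are named in the text. Each item ranked by its change had no overlap between the RIPs. Its mean in the higher RIP was at least 20 CPM for subfamilies and 10 CPM for loci and gene spans. Members and lists were chosen with earlier results of these data known. Counts by repeat group, L1 length and gene group and marker calls without ORF1p replicate 3, and the same for ORF1p against the mock IP, were added after seeing the data. Loci on chromosome Y and in 1 X-linked noncoding gene were tested but not named. Promoter sequences are from RefSeq (GRCh38.p14), from a table of 34961 entries.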

Additional observations from a re-analysis of the deposited data

Results flagged for a closer look

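ORF1p replicate 3 lay far from the other 3 ORF1p libraries in nearly every value that stood out by its gap to the other libraries of its group (Dixon's 95% critical value for 4 libraries). Chance alone gives about 1 such gap in 20 groups. Of 157 ORF1p and 151 ORF2p groups of values examined, 49 and 2 had such a gap, and values of overlapping repeat groups are not independent. Among L1 subfamilies, in CPM, it was highest at 289 for L1M3de, 53009 for L1HS, 67904 for L1PA2, 39499.9 for L1PA3, 15549.9 for L1PA4, 12158 for L1PA5, 7987 for L1PA6, 10461 for L1PA7, 2780.0 for L1PA8, 1330.0 for L1PA8A, 3017 for L1PA10, 1619 for L1PA11, 702 for L1PA12, 4224 for L1PA13, 1849 for L1PA14, 4605 for L1PA15 and 4885 for L1PA16. It was highest for HERV35I-int at 569.7 CPM, LTR6B at 669.6 CPM and L2a at 34963 CPM, and lowest for LTR22A at 23.8 CPM. It was also the highest ORF1p library at single loci: 383 CPM for the L1MA8 copy in PPP1R12A-AS2, 98.1 CPM for the MIR copy in PPP1R12A-AS2, 80.2 CPM for the MIR copy in SEMA3C, 73.7 CPM for the L1ME3C copy in LRRTM4, 185 CPM for the L1M3de copy in JPX, 505 CPM for the LTR6B copy in LINC00665, 75.4 CPM for the L1PA4 copy in FAAH2, 166 CPM for the L1PA5 copy in SPOCK3, 95.8 CPM for the L1PA11 copy in ZNF221, 155 CPM for the L1PA15 copy in ZNF480, 95.8 CPM for the L1PA16 copy in TERF1, 5400.0 CPM for the L1HS copy in TTC28, 1316 CPM for the L1HS copy at chr3:26728189-26730137, 1276 CPM for the L1HS copy at chr7:25041861-25047891, 1049 CPM for the L1HS copy in CFAP52 and 1248 CPM for the L1HS copy at chr1:239623499-239629523. It was the lowest for the gene span LOC124902738 at 71.3 CPM. Of repeat reads it had the largest share of LINE (51.9%), young L1 (17.01%), older primate L1 (2.89%) and other primate L1 (1.08%), and the smallest of SINE (21.7%), L2 (7.17%), CR1 and L3 (1.02%), MIR (6.18%), HERV9 and LTR12 (0.107%), HERV17 and LTR17 (0.0203%) and Tip100 (0.317%). What made this library differ was not tested.

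ORF2p replicate 1 was the highest ORF2p library for HERVH-int as a subfamily, at 78985 CPM. ORF2p replicate 2 was the highest ORF2p library for the ERV24_Prim-int copy at chr4:132125578-132129148, at 160.1 CPM.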

How the results depend on the processing

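Named gene spans kept their direction and call under all alternatives run, as did the named loci except the L1HS copy at chr3:26728189-26730137, at 1.16 (replicate block) and 2.01 (without ORF1p replicate 3), the HERVH-int copy at chr3:54636819-54639750, at -0.99 (without ORF1p replicate 3), -0.76 (DESeq2 Wald test) and -0.66 (TMM from loci) and the HERVH-int copy in SEMA3E, at 0.015 (TMM from loci). Counts moved by over 1.5 times as follows: 50495 loci lower (DESeq2 Wald test, 8 RIP libraries), 115787 loci lower (summed count of 50), 27566 loci higher and 14112 loci lower (summed count of 500), 30359 loci higher, 23712 loci lower and 30 subfamilies higher (whole counts only), 115 subfamilies lower (library totals), 63 subfamilies higher (leading locus left out) and 302 subfamilies higher and 304 subfamilies lower (adjusted p alone), with fewer features tested under the stricter filter and whole counts. Log2 changes that took the other sign were, with library totals, AluY -0.12 and HERV17-int -0.059. Log2 changes that took the other sign were, with leading locus left out, LTR22A -1.32, MLT1E3 -0.041, LTR22C2 -0.50, LTR3 0.025 and HSMAR1 -0.13. Log2 changes that took the other sign were, with whole counts only, L1PA17 -0.067, L1ME3C -0.15, LTR22A -0.11, L1P3b -1.38, MLT1E3 -0.33, LTR22C2 -1.4, L1M3de -0.56, MLT1E3-int 0.61, LTR46-int 0.028, LTR6B 1.87, L1PA2 -0.53, L1PA3 -0.12, L1PA4 -0.079, L1PA5 -0.16, L1PA6 -0.24, L1PA7 -0.043, L1PA8 -0.26, L1PA8A -0.17, L1PA10 -0.022, L1PA13 -0.066, L1PA14 -0.068, AluYa5 0.090, AluY -0.24, HERVK-int 1.23, L1MA2 -0.012, L1MB1 -0.082, L1MB8 -0.36, L1MCb -0.10, L1MD1 -0.39, L1MEg1 -0.56, HAL1ME -0.37, AluYh7 0.17, LTR7C 0.19, LTR7A -1.63, LTR5A 0.62, HERV17-int -0.49, LTR2C 0.85, MST-int 0.35, MSTD-int -0.085, ERVL-E-int -0.11, MER30B 0.45, MER91B -0.026 and HSMAR1 -0.19. With whole counts only, calls lost without a change of sign were ERV24_Prim-int 0.60, MER34B-int -0.26, LTR35 -0.34, HERV35I-int -0.37, LTR3 -0.57, LTR26E -0.36, Tigger10 -0.86, L1PA11 0.099, L1PA15 0.21, L1PA16 0.028, LTR7 0.014, LTR5_Hs -0.22, L1MA1 0.12, L1M3b 0.83, L1M3a 0.36, CR1_Mam -0.55, X7B_LINE -0.28, LTR12D 0.45, LTR17 0.059, Charlie17a -0.91, FordPrefect 0.62 and Tigger12 -0.49. Without the 20 loci with the most reads, share differences in points were LINE 8.28 (exact adjusted p = 0.121), LTR 1.798 (exact adjusted p = 0.0486), L1ME -0.128 (exact adjusted p = 0.783), THE1 and MST 0.0214 (exact adjusted p = 0.942) and Mariner 0.00648 (exact adjusted p = 0.712). AluS was then at -3.10 points and no longer passed (exact adjusted p = 0.0845). HERV17 with LTR17, at 0.0148 points, then passed (exact adjusted p = 0.0486). Leaving out 1 library at a time gave ranges of -0.0110 to 0.0184 for the share of HAL1, points, -0.0296 to 0.0342 for the share of HERVL and MLT2, points, -0.162 to 0.0197 for the share of THE1 and MST, points, -3.17 to -2.55 for the share of DNA, points, 9.82 to 13.2 for the share of LINE, points, -10.2 to -7.71 for the share of SINE, points, -0.30 to 0.080 for AluYa5, -0.23 to 0.058 for HAL1b, -0.79 to 0.026 for L1HS and -0.059 to 0.0019 for L2a, and no share can pass an exact test at 3 against 4. Whether the replicate numbers pair the libraries is not known. Same-numbered libraries correlated at 0.221, -0.122, 0.188 and 0.122 in their deviations from the group means, and other pairs at -0.289 to 0.291. So few values cannot exclude pairing. With the replicate block, 86619 loci were higher and 63148 lower. Depth limits loci near the minimum of 100 summed counts, where a group can have no read. Nearly all young L1, HERVH-int and LTR5_Hs copies had fractional counts. The protein, source material and batch cannot be told apart. Where no cause is named, the cause was not tested.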
